A study of Mus musculus with 80 samples.

Results

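The 5 neighbouring genes on distal mouse chromosome 7 described here, Lrrc27, Stk32c, Zfp511, Mtg1 and Syce1, were followed in 5 tissues of mice lacking Es-1, the serum carboxylesterase encoded by Ces1c on chromosome 8. The 5 genes were picked because they had differed between Es-1 KO and wild-type (WT) mice in these same arrays. The KO-WT differences below are therefore a description. Calls on that contrast are counted beside those of all probe sets, and nothing about the members is read from them. Every probe set annotated with exactly one gene, that gene being one of the 5, was taken, which gave 5 of 17097 measured genes on 7 of 45037 probe sets (28898 of them named with 1 gene). Zfp511 had 3 probe sets and each of the others had 1. The 3 are called here by the target their annotation names and by name ending: AK010407, BQ178976 _a_at and BQ178976 _x_at.

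The groups were Es-1 KO males and females and WT males and females, all labelled as C57BL/6 background, untreated, with brain, heart, kidney, liver and lung taken. The labels give neither the age of the mice nor the design of the KO allele. Each of the 20 groups of genotype, sex and tissue had 4 arrays, so 8 KO arrays stood against 8 WT arrays in each tissue and 80 were used in all. They came from 12 KO animals and 11 WT animals, and 16 animals gave brain, heart, kidney and liver. Of these 16, 9 also gave lung, and 7 other animals gave lung alone, so the lungs came partly from other mice. The arrays were of the Affymetrix HT MG-430 PM type, and all levels are the authors' log2 RMA values, on which 1 unit is a doubling. Arrays limit precision through their number. A level in whole tissue cannot tell fewer cells of a type from less RNA per cell.

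The targeted gene was checked first. Ces1c in liver was at 9.70 to 10.17 in 7 KO livers and at 12.04 in the liver labelled KO male 952, against 12.11 to 12.63 in WT livers. The liver labelled KO male 952 thus went against its label, and the mean difference was -2.30 (SE 0.26, limma adjusted p = 0.0032 over 1 probe set per gene). A KO female heart, 994, carries lung in its tissue field and heart in its title, and was grouped by title. The highest tissue marker list was that of the grouped tissue on 80 of 80 arrays. Some libraries also held raised marker lists of another tissue. The liver list (6 of 6 genes measured) ran from 3.63 to 8.67 in KO hearts and from 3.95 to 10.71 in WT hearts. The skeletal muscle list (4 of 4) ran from 4.09 to 8.21 in KO lungs and from 4.06 to 8.61 in WT lungs. The pancreas list (3 of 4) ran from 5.14 to 6.61 in KO livers and from 5.10 to 9.58 in WT livers. The livers without raised markers were 8 KO and 4 WT, so all those with raised markers were WT. Without libraries with raised markers, the difference moved over 1.5 times or changed direction in 13 of the 35 combinations of member probe set and tissue. Each was of a main size of 0.12 or less. Leaving out 1 library at a time also moved 13 of 35, again of 0.12 or less. Those values stand beside the results below where they concern raised markers.

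Mtg1 encodes a GTPase that assists assembly of the large subunit of the mitochondrial ribosome, and Syce1 encodes a central element protein of the synaptonemal complex, which joins homologous chromosomes in meiosis. Stk32c belongs to the YANK family of serine/threonine kinases, Zfp511 is a zinc finger protein gene and Lrrc27 a leucine-rich repeat protein gene. Genes that lie near one another on a chromosome are inherited together more often than distant ones, so the genes of a segment are examined as a group.

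In the GRCm38.p6 annotation, Stk32c lies at chr7:139103638-139213307 on the minus strand and Lrrc27 at chr7:139211632-139242979 on the plus strand, so that their 5' ends overlap head to head. Zfp511 follows at chr7:140036390-140040606, Mtg1 at chr7:140137564-140150786 and Syce1, on the minus strand, at chr7:140777229-140787854. Of the 5 genes, 5 had a promoter entry in the RefSeq table of the same build, 7 entries in all, each from 250 bases before to 50 after a start site. The 2 below are shown because Lrrc27 and Stk32c share a start region: capitals mark the 67 bases, chr7:139213258-139213324, which both windows hold on opposite strands.
Lrrc27 promoter (chr7:139213025-139213324, plus strand): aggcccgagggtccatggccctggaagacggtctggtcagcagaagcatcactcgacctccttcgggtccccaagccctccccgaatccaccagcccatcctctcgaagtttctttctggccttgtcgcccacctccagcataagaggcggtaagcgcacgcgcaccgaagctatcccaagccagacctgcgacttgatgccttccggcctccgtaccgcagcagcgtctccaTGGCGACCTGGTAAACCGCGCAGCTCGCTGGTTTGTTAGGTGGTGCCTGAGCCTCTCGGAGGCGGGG
Stk32c promoter (chr7:139213258-139213557, minus strand): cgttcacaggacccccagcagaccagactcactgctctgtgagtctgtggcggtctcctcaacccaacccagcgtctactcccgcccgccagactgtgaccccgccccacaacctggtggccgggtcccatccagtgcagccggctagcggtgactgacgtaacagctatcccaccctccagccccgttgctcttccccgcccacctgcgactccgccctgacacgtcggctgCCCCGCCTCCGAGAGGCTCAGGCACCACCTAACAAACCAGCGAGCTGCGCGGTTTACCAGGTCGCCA

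Promoters of Mtg1 and Syce1 are shown because both hold GCGCATGCGCAG, in capitals, the longest run of letters that the 2 windows share. It was picked after the sequences had been read.
Mtg1 promoter (chr7:140137314-140137613, plus strand): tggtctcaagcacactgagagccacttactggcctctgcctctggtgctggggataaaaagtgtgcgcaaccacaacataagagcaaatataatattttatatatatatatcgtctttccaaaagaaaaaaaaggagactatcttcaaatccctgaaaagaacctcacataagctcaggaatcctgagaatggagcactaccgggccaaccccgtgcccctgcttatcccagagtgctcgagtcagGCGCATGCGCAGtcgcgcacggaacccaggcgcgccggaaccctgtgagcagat
Syce1 promoter (chr7:140787805-140788104, minus strand): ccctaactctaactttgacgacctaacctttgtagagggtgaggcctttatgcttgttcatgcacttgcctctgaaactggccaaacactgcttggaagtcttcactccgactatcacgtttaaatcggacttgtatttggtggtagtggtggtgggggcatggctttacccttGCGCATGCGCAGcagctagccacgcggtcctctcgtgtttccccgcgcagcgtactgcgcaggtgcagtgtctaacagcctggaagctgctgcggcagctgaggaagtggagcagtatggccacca

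Of all 32851 promoter entries, 0.283% held that run on either strand. GGGCGG, searched on both strands, had 4 matches in each Stk32c entry and 2 in the Zfp511 entry, and was held by 35.7% of all entries. TATAAA, also searched on both strands, was found 1 time in the Mtg1 entry and in 13.6% of all entries. A match is a description of the sequence only.

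Lrrc27 in heart showed the widest gap between genotypes of the 35 combinations. KO hearts ranged from 6.25 through a median of 7.04 to 7.57, against WT hearts from 4.51 through 4.83 to 6.18. No KO heart overlapped a WT heart, and the nearest pair were KO female 985 and WT male 901. The mean was 6.96 ± 0.49 in KO hearts and 5.01 ± 0.55 in WT hearts (SD, n = 8 each), a difference of 1.96 (SE 0.23) or 3.88-fold. It was the 1 member called in heart (limma adjusted p under 0.05, called in this sense throughout), where 0.00222% of probe sets were called, and the 1 called in any tissue; the call rests on the contrast by which the genes were picked. Without KO female 994 the difference was 1.88 (SE 0.23). Without the 6 hearts with raised markers of another tissue it was 1.96 (SE 0.32), with 3 KO hearts and 7 WT hearts left and no probe set called.

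Lung and brain were lower in KO for Lrrc27. In lung, Lrrc27 was at 3.46 to 4.17 in KO lungs, median 3.74, against 3.85 to 4.45 in WT lungs, median 4.24. The difference was -0.41 (SE 0.08), with 3 KO lungs inside the WT range. In brain it was -0.25 (SE 0.07), with KO brains from 3.66 up, median 3.76, and WT brains from 3.79 to 4.27; 2 KO brains lay inside the WT range. Kidney gave 0.03 (SE 0.06) and liver -0.02 (SE 0.10), with no stable direction in either. Without libraries with raised markers they were 0.06 and -0.05. Outside heart, the group means of Lrrc27 lay between 3.77 and 4.20, near 4.06, the median of the array medians.

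Stk32c, the kinase gene that faces Lrrc27, differed between genotypes in lung. KO lungs ranged from 3.31 through a median of 3.47 to 4.21, against WT lungs from 3.88 through 4.50 to 4.94. KO lungs 1871 and 1897 lay inside the WT range and the other 6 lay below it. The mean was 3.57 ± 0.32 in KO lungs and 4.41 ± 0.39 in WT lungs (SD, n = 8 each), a difference of -0.84 (SE 0.16). Without the 4 lungs with raised markers of another tissue, it was -0.88 (SE 0.21). In brain, its main tissue, Stk32c averaged 8.41 ± 0.06 in KO brains and 8.39 ± 0.31 in WT brains (SD, n = 8 each). All 8 KO brains lay inside the WT range, a difference of 0.02 (SE 0.10). Heart, kidney and liver gave 0.11 (SE 0.09), -0.09 (SE 0.16) and 0.04 (SE 0.10). These small values were not steady. Without libraries with raised markers of another tissue they were 0.014 in heart, -0.15 in kidney and 0.14 in liver, and brain turned to -0.0066. Leaving out 1 library took kidney to -0.0098 (without WT female 876) or -0.18 (without WT male 902), and liver to -0.0028 (without WT female 936).

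**Figure D1:**
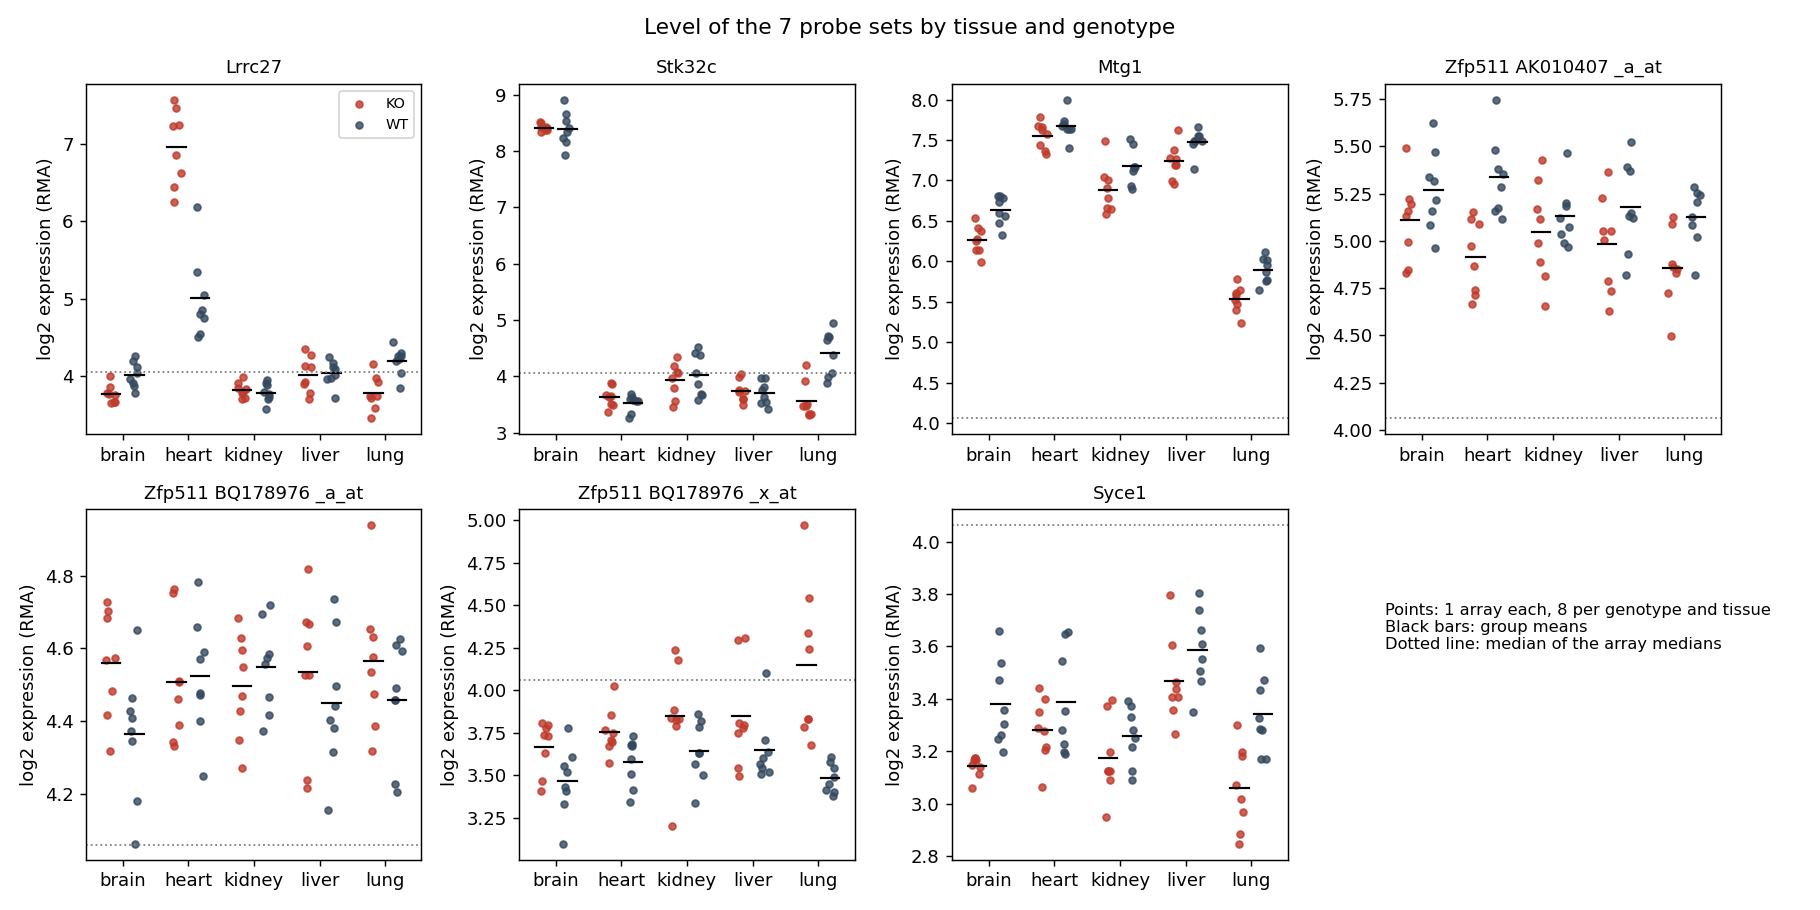
Log2 RMA level (y axis) of each of the 7 probe sets in 5 tissues (x axis), 1 point per array, with KO in red left of WT in blue, black bars for means and a dotted line at 4.06, the median of the array medians. Lrrc27 in heart is the panel in which KO and WT points stand farthest apart.

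Mtg1, the mitochondrial ribosome assembly GTPase, was lower in KO than in WT in all 5 tissues. The largest gap was in brain, where KO ranged from 5.99 through 6.26 to 6.54 and WT from 6.33 through 6.66 to 6.81. In brain 3 KO arrays lay inside the WT range. The difference there was -0.37 (SE 0.08), followed by lung at -0.36 (SE 0.09), kidney at -0.29 (SE 0.11), liver at -0.24 (SE 0.10) and heart at -0.12 (SE 0.09). Without the liver labelled KO male 952, liver gave -0.20 (SE 0.10). Without the 6 hearts with raised markers of another tissue, heart gave -0.25 (SE 0.13), and without the WT male 902 heart alone it gave -0.066. In lung KO was at 5.24 to 5.78 and WT at 5.65 to 6.11, with 1 KO lung inside the WT range. In heart 6 of 8 KO values lay inside the WT range, and the liver and kidney values overlapped likewise.

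Syce1, a meiosis gene, was dim on these arrays, at group means of 3.06 to 3.59, all below 4.06. It was lower in KO than in WT in all 5 tissues. In brain KO ranged from 3.06 through 3.16 to 3.17, against WT from 3.20 through 3.33 to 3.66, so that no KO brain reached a WT brain. The difference was -0.24 in brain (SE 0.07), -0.28 in lung (SE 0.07), -0.12 in liver (SE 0.08), -0.11 in heart (SE 0.09) and -0.08 in kidney (SE 0.07). The KO brains spread by 0.04 (SD) and the WT brains by 0.16 (SD, n = 8 each). Lung and heart overlapped, with 3 and 7 KO values inside the WT range. Without the 6 hearts with raised markers of another tissue, heart gave -0.19 (SE 0.12), and without the WT male 903 heart alone -0.060. Kidney gave -0.040 without its libraries with raised markers.

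The 3 probe sets of Zfp511 did not differ in one direction. On AK010407, KO was lower in all 5 tissues, at -0.42 in heart (SE 0.10), -0.27 in lung (SE 0.08), -0.20 in liver (SE 0.12), -0.16 in brain (SE 0.10) and -0.08 in kidney (SE 0.10), the last -0.017 without the kidneys with raised markers. In heart KO ranged from 4.67 through 4.92 to 5.15 and WT from 5.12 through 5.32 to 5.75, and 1 KO heart lay inside the WT range. On BQ178976 _x_at, KO was higher in all 5 tissues. In lung KO ranged from 3.68 through 4.04 to 4.97, against WT from 3.38 through 3.47 to 3.61, with no overlap, a difference of 0.67 (SE 0.16). The other tissues gave 0.21 in kidney (SE 0.11), 0.20 in brain (SE 0.09), 0.20 in liver (SE 0.12) and 0.18 in heart (SE 0.08).

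The third, BQ178976 _a_at, gave 0.19 in brain (SE 0.08), 0.11 in lung (SE 0.09), 0.08 in liver (SE 0.10), -0.02 in heart (SE 0.08) and -0.05 in kidney (SE 0.07). Without libraries with raised markers, heart turned to 0.11, liver turned to -0.0068 and lung gave 0.064. In Affymetrix naming, an _x_at set can hold probes that match other transcripts, and an _a_at set holds probes that transcripts of one gene share. Over the 80 arrays, with group means removed, AK010407 and BQ178976 _x_at correlated at r = -0.17, the pair with the same target at 0.35, and AK010407 with BQ178976 _a_at at 0.15. The arrays share animals and the values share normalisation, so these are descriptions. Without the 4 lungs with raised markers the difference on BQ178976 _x_at was 0.56 (SE 0.15).

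**Figure D2:**
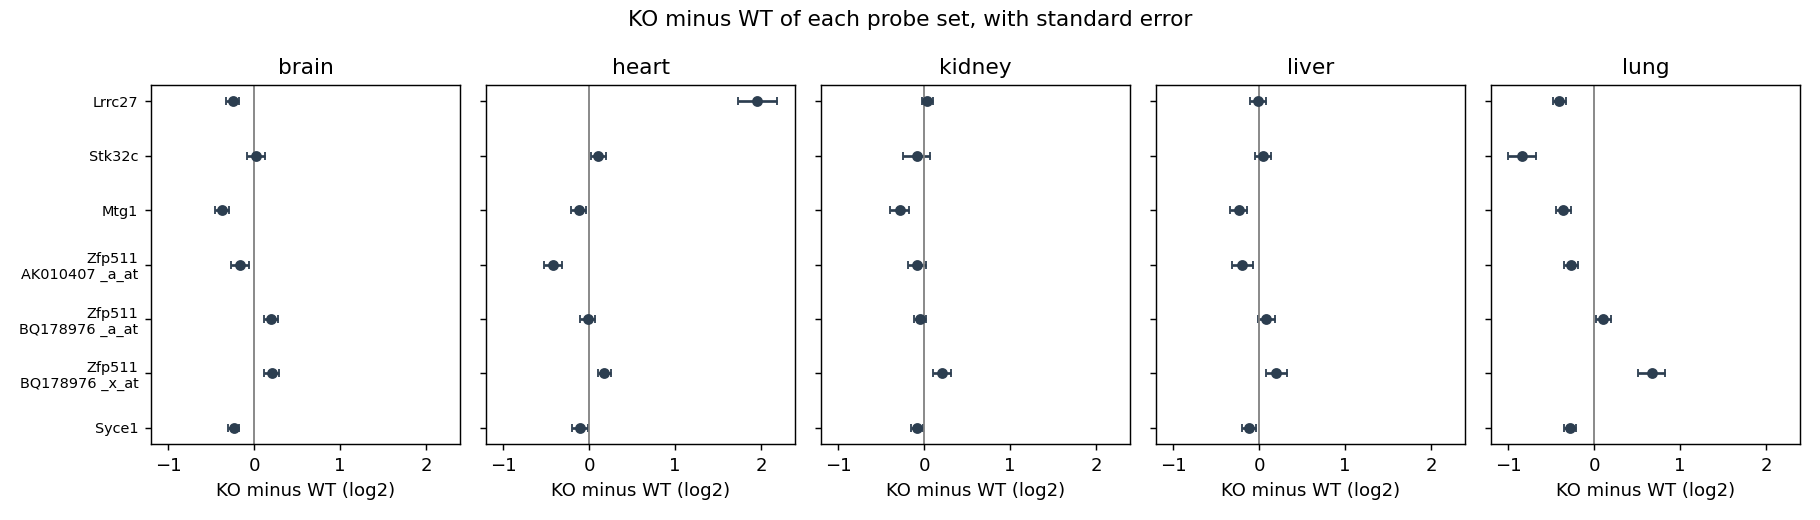
KO minus WT (log2, x axis) with its standard error for each probe set (rows) in 5 tissues (panels), 16 arrays in each. Lrrc27 in heart stands at 1.96, while the Zfp511 probe sets lie on both sides of 0.

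Across the 7 probe sets, 3 of 35 combinations had groups that did not overlap. KO was above WT for Lrrc27 in heart, where 0.00666% of all probe sets were, and for Zfp511 on BQ178976 _x_at in lung, where 0.0178% were. KO was below WT for Syce1 in brain, where 0.00666% were. The shares above were 0.0133% in brain, 0.00888% in kidney and 0.00666% in liver, and the shares below were 0.00888% in lung, 0.00666% in both heart and liver, and 0.00222% in kidney. Of the probe sets 3 were lower in KO in all 5 tissues and 1 was higher in all 5, beside 3.35% and 5.34% of all probe sets. Members called for KO against WT numbered 0 of 7 in brain, kidney, liver and lung, where 0.00222%, 0%, 0.00666% and 0.0111% of probe sets were called. At an unadjusted p under 0.05, 3188 probe sets passed in brain, 1524 in kidney, 1548 in liver and 2302 in lung, out of 45037. Because this contrast chose the members, nothing is read from these shares.

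Whether an animal's deviation was shared by its tissues was tested separately. For the 16 animals with brain, heart, kidney and liver, the mean of each genotype, sex and tissue was removed, and limma's moderated F asked whether animals differed. This test does not use the KO-WT contrast. Of the 7 probe sets 0 passed an adjusted p of 0.05, where 3.16% of all probe sets did; among KO animals 0 passed where 3.36% did and among WT animals 0 where 0.291% did. Mtg1 came nearest, with 36.8% of its variation between animals, the 96.7th percentile of all probe sets, and an adjusted p of 0.0696 (0.0715 among KO animals and 0.506 among WT animals). It was called without WT male 902 (adjusted p = 0.0443) or without KO female 994 (adjusted p = 0.0366). The Zfp511 probe set BQ178976 _x_at had 29.6%, adjusted p = 0.138, and the median over all probe sets was 4.86%. Stk32c had 15.0% and AK010407 8.83%, while Lrrc27, BQ178976 _a_at and Syce1 had estimates below 0.

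The animals behind these values can be named. Mean Mtg1 over the 4 tissues was lowest among KO animals in the male labelled 952, at 6.81, and female 982, at 6.82. It was highest in males 964 and 962, at 7.22 and 7.12, and female 985, at 7.07. Among WT animals it was lowest in male 901, at 7.01, and highest in male 1262, at 7.40. WT male 901 was the lowest WT animal in brain (6.33), heart (7.40) and liver (7.14), and 3 KO animals had a higher mean than it.

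On BQ178976 _x_at, the KO animals with the highest Mtg1 and the WT animal with the lowest stood at the other end of their genotype. KO males 962 and 964 and female 985 had the lowest KO means, at 3.49, 3.62 and 3.68. WT male 901 had the highest WT mean, at 3.86, above 5 of the KO animals. The male labelled KO 952, lowest of the KO animals for Mtg1, stood at 3.80 with 4 KO animals below it, and WT male 1262, highest of the WT animals for Mtg1, at 3.53 with 2 WT animals below it, so neither was at an end. The heart Lrrc27 of WT male 901, at 6.18, was the highest of the WT hearts, the next being male 1262 at 5.35. The 4 lowest KO hearts for Lrrc27 were 985 (6.25), 962 (6.45), 1259 (6.62) and 964 (6.86). Of these, hearts 962, 1259 and 964 held raised markers of another tissue. Unlike the others, KO male 1259 was low for Mtg1, at 6.87 and rank 3 from the lowest KO mean. On AK010407, WT male 901 was at no end, at 5.24 and rank 5 from the lowest WT mean. KO 964, 962 and 985 had the highest KO means there, at 5.18, 5.14 and 5.10. With group means removed, Mtg1 and BQ178976 _x_at correlated at r = -0.27 and Mtg1 and AK010407 at 0.33 over the 80 arrays, which share animals.

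**Figure D3:**
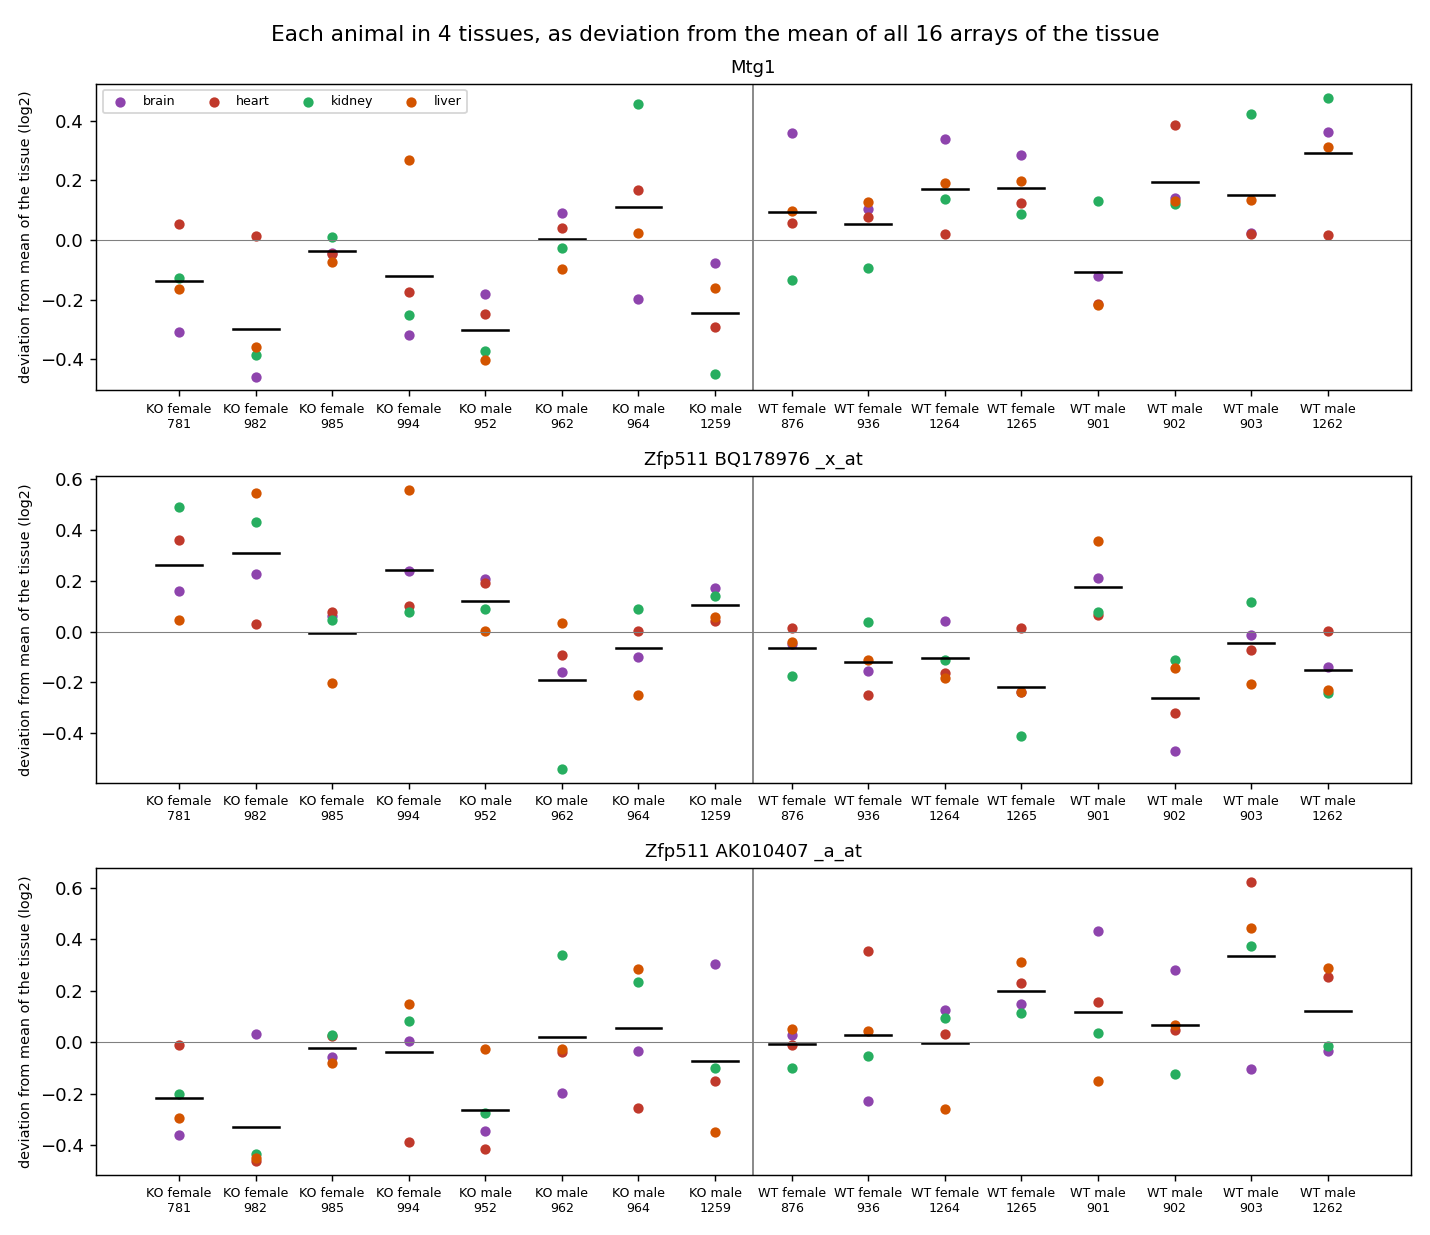
Deviation (log2, y axis) of each array from the mean of all 16 arrays of its tissue for Mtg1 and 2 Zfp511 probe sets; the 8 KO animals stand left of the line and the 8 WT animals right of it, colours mark tissues and bars the mean of 4 tissues. WT male 901 lies below the other WT animals for Mtg1 and above them for BQ178976 _x_at, but among them for AK010407.

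No member was called for sex. Of 35 combinations 0 were called for male against female (limma, smallest adjusted p = 0.300, 1 at an unadjusted p under 0.05). That one was Syce1 in liver, at 0.18 (SE 0.08), where 15.3% of all probe sets passed the same unadjusted level, beside 26% in kidney, 11.3% in brain, 9.78% in heart and 4.86% in lung. Of all probe sets, 13% were called in kidney, 2.68% in liver, 0.28% in brain, 0.135% in heart and 0.0511% in lung. For the KO effect in males against females, 0 of 35 were called (smallest adjusted p = 0.549), 2 at an unadjusted p under 0.05, where 0.00222% of probe sets were called in lung and 0% in the other tissues. The first of those 2 was Lrrc27 in lung, at 0.54 (SE 0.15), and the other Mtg1 in brain, at 0.36 (SE 0.16). Of all probe sets 7.17% in lung and 5.52% in brain passed that unadjusted level, and 4.2%, 3.96% and 3.91% did in heart, kidney and liver.

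The tissue pattern of the members, which the choice did not use, was tested in the 40 WT arrays. Stk32c was a brain gene here, 4.48 above the other 4 tissues (SE 0.11, limma adjusted p = 3.8e-29), beside 26.4% of all probe sets higher in brain. In WT it ran from brain (8.39) through lung (4.41), kidney (4.02), liver (3.70) and heart (3.52), and below brain each tissue lay within the larger SD of its neighbour in that order. In the other 4 tissues it was lower, from -0.50 in lung to -1.61 in heart, each called, beside 39.1% of probe sets lower in lung, 33.3% in liver, 30.8% in kidney and 30.7% in heart.

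Mtg1 was ordered from heart (7.68) through liver (7.48), kidney (7.17) and brain (6.64) to lung (5.89) in WT, each step wider than the larger SD. It was 0.88 higher in heart (SE 0.07), 0.63 higher in liver (SE 0.07) and 0.25 higher in kidney (SE 0.07), and lower in brain, at -0.42, and in lung, at -1.35. These 5 calls stood beside 25.9%, 36.2% and 21.2% of probe sets higher in heart, liver and kidney, and 41.9% and 39.1% lower in brain and lung. Lrrc27 was 0.99 higher in WT heart (SE 0.11) than in the other 4 tissues, and lower in kidney, at -0.53 (SE 0.11), where 30.8% of probe sets were, and in brain, at -0.24 (SE 0.11, adjusted p = 0.0443). The brain call was lost in 19 of 40 fits that left out 1 library, with adjusted p up to 0.113, reached without the WT female 876 brain. In WT its mean was 5.01 in heart, 4.20 in lung, 4.04 in liver, 4.02 in brain and 3.79 in kidney. The steps from lung to liver and from liver to brain were within the larger SD. The step from brain to kidney, at 0.23, was wider than the larger SD of 0.17. Syce1 was 0.24 higher in liver (SE 0.06), where 36.2% were, and lower in kidney, at -0.17 (SE 0.06), where 30.8% were; the kidney call was lost in 2 of 5 other settings, among them median centring (adjusted p = 0.189), and in 2 of 40 fits without 1 library. No member was higher in lung, where 30.3% of probe sets were. No Zfp511 probe set was called in any tissue, and the WT means of AK010407 lay between 5.13 and 5.34. In all, 15 of 35 combinations were called, 6 higher and 9 lower. Beside them, 21.2% (kidney) to 36.2% (liver) of all probe sets were called higher in a tissue. A further 30.7% (heart) to 41.9% (brain) were called lower.

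Genes around the members were then set out in order. Between the outermost members lay 14 other measured genes, and 50 were taken on each side, reaching from 130936203 to 142061059. Of these 114 genes 0 were called in any tissue and 0 passed an unadjusted p under 0.001, where 0.181%, 0.0936%, 0.0292%, 0.0234% and 0.0936% of all genes did, given for brain, heart, kidney, liver and lung in turn. In heart 1 of the 50 distal genes had groups that did not overlap, and in the other tissues 0 of the 114 did. Of all probe sets in heart, 0.00666% had KO above WT and 0.00666% had KO below. For the 14 genes between, the median difference was 0.04 in brain and 0.01 in kidney, then -0.01 in heart, -0.06 in lung and -0.09 in liver. Over all genes it was 0.013, 0.021, 0.0055, -0.012 and -0.0044 in the same order. In liver 11 of the 14 (78.6%) were lower in KO, beside 51.4% of all genes. In the other tissues 4 to 8 were, beside 38.7% to 54.8%. Their median absolute difference was 0.139 in liver and 0.125 in lung, beside 0.084 and 0.067 over all genes. In brain, heart and kidney it was 0.069, 0.061 and 0.043, beside 0.060, 0.065 and 0.053. These values were not tested. The livers without raised markers of another tissue were 8 KO and 4 WT, and values of the 14 genes in those livers alone are not given here.

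Sprn, which encodes the prion-like protein Shadoo and overlaps the end of Mtg1 in the annotation, had the largest difference of those genes in brain. KO brains lay at 6.37 to 7.10, averaging 6.72 ± 0.27, against WT brains at 4.57 to 6.90, averaging 5.75 ± 0.92 (SD, n = 8 each). The difference was 0.98 (SE 0.31, adjusted p = 0.715). WT female 1265 (6.90), male 901 (6.80) and female 1264 (6.53) lay among the KO brains, and the other 5 WT brains lay at 5.85 or below. Cyp2e1, a cytochrome P450 of ethanol metabolism, differed by 1.10 in heart (SE 0.66), where the liver marker list was raised in 2 KO hearts and 1 WT heart; its part in the difference was not tested.

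**Figure D4:**
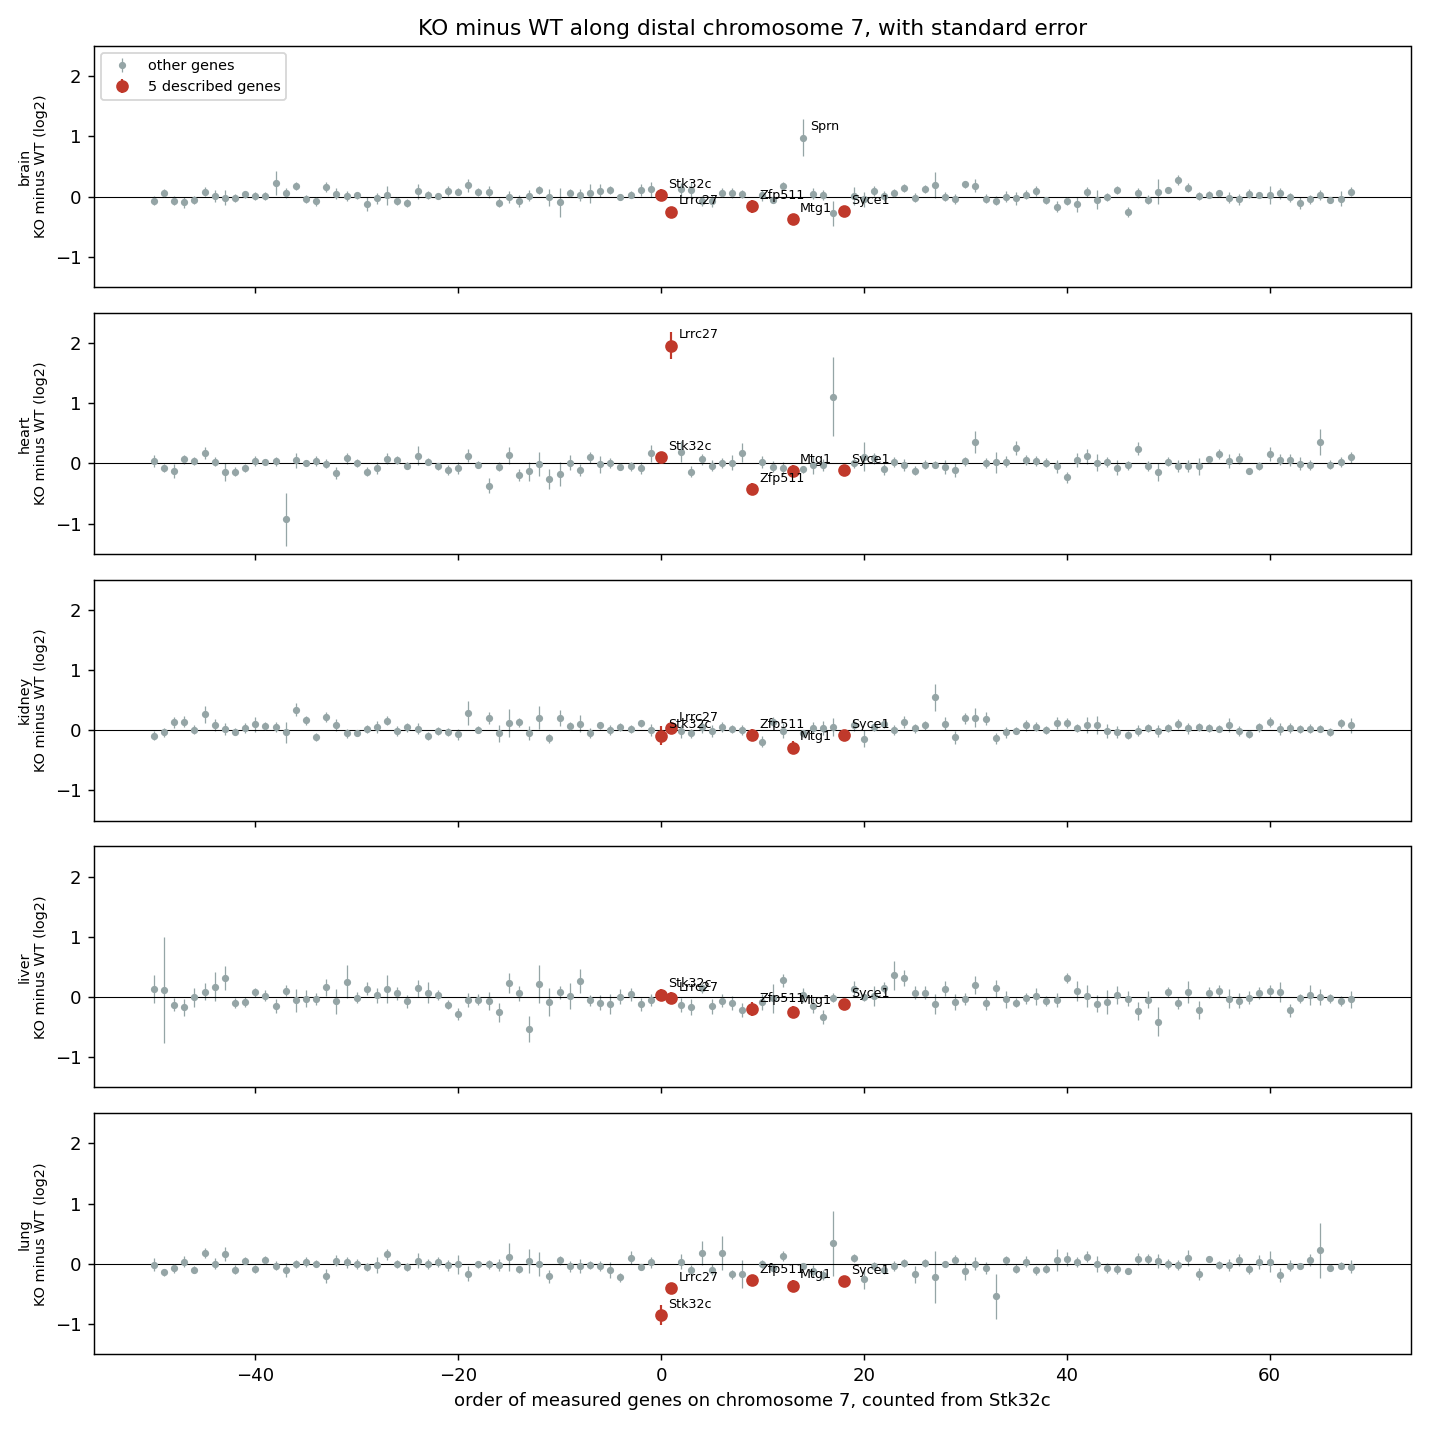
KO minus WT (log2, y axis) with its standard error for each measured gene in order along distal chromosome 7 (x axis, counted from Stk32c), 1 panel per tissue, with the 5 genes in red and the other 114 in grey. The 5 genes in red were picked by this same contrast, so nothing is read from how far they lie from the grey ones. Sprn in brain is the grey point at 0.98. In heart the grey genes include Cyp2e1 at 1.10 and Cpxm2 at -0.93.

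Genes of the members' own pathways were read from lists chosen with earlier results known. Of 21 mitochondrial ribosome assembly factors 18 were measured, of 15 synaptonemal and meiotic axis genes 12, and of 3 YANK kinases 3. None was called in either direction in any tissue, where 0% to 0.00585% of genes were. Of the assembly factors, 2 in brain, 2 in lung and 1 in each remaining tissue had an unadjusted p under 0.05, and of the meiotic genes 1 in brain and 1 in lung, both times Syce1. The same level was passed by 5.97% of all genes in brain, 4.8% in lung, 4.54% in heart, 3.36% in kidney and 3.35% in liver. Mtg1 was 1 of the 2 assembly factors in brain and in lung, and the only 1 in kidney and in liver. The others were Mterf4 in brain at 0.19 (SE 0.09), Fastkd2 in heart at -0.26 (SE 0.12) and Mterf3 in lung at 0.19 (SE 0.08). Mtg1 and Syce1 were chosen by this contrast, so nothing is read from counts that hold them. Stk32a, another YANK kinase, stood at 0.18 in brain (SE 0.08), where Stk32c was at 0.02.

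Likeness to the members was taken as Pearson's r of deviations from group means over the 80 arrays, 1 probe set per gene. Nearest to Lrrc27 were BC037032 (0.53, chromosome 15), Ahrr (0.52, chromosome 13) and Cdcp3 (0.49, chromosome 7). Nearest to Mtg1 was Dpy30 (0.56), to Zfp511 Evi5l (0.56), to Stk32c Atg4c (0.55) and to Syce1 Spata31d1d (0.50). Among the 3 genes most like each member, Cdcp3 was the only one on chromosome 7.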

How the data were processed

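Total RNA from 5 tissues of Es-1 KO and WT mice was hybridised to 80 arrays. Per the submitters' processing notes, the tools were Partek and Affymetrix Expression Console with RMA; versions and settings are not given in the sources used here. What the authors deposited is a log2 level for each probe set after RMA, and whether all tissues were normalised together is not given either.

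Of 45141 probe sets, 104 controls were left out and 45037 fitted. Groups came from sample titles, which give an animal number. The software was limma 3.58.1 and the R package data.table (version 1.17.8) under R 4.3.3. Each tissue was fitted alone on group means of genotype and sex with eBayes, and p-values were adjusted by Benjamini-Hochberg over all probe sets (threshold 0.05). Separate fits tested animals within groups (64 arrays) and tissues within WT (40 arrays). Gene-level values used the probe set with the highest mean, which gave 17097 genes. Fits were tested on simulated data. Animal numbers were read as separate animals, and the tissues share animals.

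The members and lists were chosen with earlier results of these data known. Named were all member probe sets, per tissue the 3 neighbours with the largest absolute difference and any called, up to 4 list members with the smallest p, and the 3 genes most like each member; not every name the rule allows is printed. Same-animal arrays, by the numbers in the titles, correlated at a median of 0.090 over 132 pairs, the lowest at -0.22. The other pairs compared, 2908 in number, had a median of -0.0059. Alternatives were gene level fits, brighter probe sets alone, median centring, quantile normalisation, a trended robust prior, the animal number's range as a block, the animal as a random block, leaving out each library and, added after seeing the data, leaving out libraries with raised markers of another tissue.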

Additional observations from a re-analysis of the deposited data

Results flagged for a closer look

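Of 140 groups of 4 arrays, 5 held an array far from the other 3, and chance flags about 1 in 20 groups. For Stk32c, KO female 781 kidney stood at 3.46, against 3.98 to 4.08 in the other KO female kidneys. For Zfp511 on BQ178976 _x_at, KO male 962 kidney stood at 3.21, against 3.83 to 3.89 in the other KO male kidneys, and WT male 901 liver stood at 4.10, against 3.52 to 3.60 in the other WT male livers. For Zfp511 on AK010407, WT female 1265 lung stood at 4.82, against 5.24 to 5.28 in the other WT female lungs; that lung also held a raised skeletal muscle list. For Zfp511 on BQ178976 _a_at, WT female 1265 brain stood at 4.06, against 4.37 to 4.43 in the other WT female brains.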

How the results depend on the processing

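All 825 alternative values of KO minus WT for the members moved by less than the replicate spread, the residual SD of the main fit. That limit is wide, and direction was asked only of the 1 called value. By the limit of 1.5 times, 8 of 35 combinations moved in the other settings. Leaving out 1 library moved 13, and leaving out libraries with raised markers also moved 13. Direction changed under some alternative in 6 of 35 combinations, of main size 0.083 or less: Lrrc27 in liver and kidney, Stk32c in brain and liver, and Zfp511 BQ178976 _a_at in heart and liver. The number of probe sets called over the whole table was less steady. With the animal as a replicate block over 80 arrays (correlation 0.060) it was 61 in brain, 21 in liver, 20 in lung and 5 in heart and in kidney alike. It was 0 in brain with 1 probe set per gene, with renewed quantile normalisation and with the intensity trend and robust prior. With 1 probe set per gene it was 1 in liver and 1 in lung, and with the number range as a block 3 in lung. The interaction in lung gave 0 with median centring and with the trend and robust prior. Leaving out the libraries with a marker list of another tissue more than 1.5 above the tissue median, a limit chosen after seeing the data, gave 0 in brain, heart, liver and lung. For animals within groups it was 750 with 1 probe set per gene, 131 in WT animals alone, and 114, 60 and 637 without heart, kidney and liver.

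Leaving out 1 library at a time, KO against WT called 0 to 6 probe sets in brain, 1 to 2 in heart, 0 to 1 in kidney, 2 to 3 in liver and 3 to 5 in lung. Male against female called 45 to 244 in brain, 33 to 81 in heart and 792 to 1863 in liver. The interaction called 0 to 139 in brain, 0 to 1 in liver and 0 to 1 in lung, and animals within groups called 849 to 1523. Of members, 0 to 1 were called there: Mtg1 was called without WT male 902 (adjusted p = 0.0443) and without KO female 994 (0.0366). Of the WT tissue calls, Lrrc27 in brain was lost in 19 of 40 fits without 1 library and in 0 of 5 other settings. Syce1 in kidney was lost in 2 of 40 and in 2 of 5, and the other 13 kept their side in all 45 alternatives. The cause of these shifts was not tested. Low signal limits Syce1 throughout, Lrrc27 outside heart and Stk32c outside brain, the last at group means of 3.52 to 4.41. It also limits Zfp511 BQ178976 _x_at, at group means of 3.47 to 3.85 apart from 4.15 in KO lung.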
